A study of Mus musculus with 6 samples.

Results

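The cornified envelope genes encode the proteins that keratinocytes cross-link beneath the plasma membrane as they die and become the flattened cells of the skin surface. They were taken as all 46 of the 32285 genes in the count matrices whose symbols begin with Lce or Sprr and a digit, or are Flg, Flg2, Lor, Ivl, Rptn, Tchh, Tchhl1, Hrnr, Crnn or Crct1. They comprised 21 Lce genes, 15 Sprr genes, 7 fused S100-type genes (Flg, Flg2, Rptn, Tchh, Tchhl1, Hrnr and Crnn) and 3 single precursor genes (Lor, Ivl and Crct1). All 46 lie on chromosome 3 of the mouse genome between positions 92080271 and 93471980 (GRCm38.p6, the assembly also called mm10).

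Dorsal skin cells came from wildtype male FVB mice aged 55 to 57 days, whose hair was shaved and waxed to start hair regeneration. Skin was taken after 0, 4 and 16 h and after 2, 4 and 6 d, values given from 0 h to 6 d follow that order, and 1 library of single-cell RNA was made per time point with the 10x Genomics Chromium 3′ kit. Each library mixed the cells of 2 mice, which cannot be told apart, so a time point is 1 sample and no 2 time points could be tested against each other. The design asks how the cells of the skin change in the first days after depilation, and here how the genes of the final skin barrier are distributed over cell classes and time.

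In the epidermis, keratinocytes leave the basal layer, become spinous and then granular cells, and finally cornify. Loricrin, small proline-rich proteins and late cornified envelope proteins are cross-linked by transglutaminases into the envelope, while filaggrin bundles keratin filaments and is later broken down into moisture-holding amino acids. The suprabasal cells of the upper hair follicle (uHF.SB) line the canal through which hair and sebum leave the skin and also cornify.

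The libraries held 72634390 to 112370376 UMIs (unique molecular identifiers, each a counted RNA molecule) in 7307 to 13878 barcodes, of which 6520 to 11032 cells remained after filtering. Any 2 libraries shared at most 47 barcodes. Clusters were found without the 46 members and named from fixed markers, so marker levels describe the names and do not test them. There were 88 to 331 granular-like cells, 392 to 1367 spinous-like cells and 272 to 1407 uHF.SB-like cells per library, and spinous-like and granular-like cells together form the suprabasal interfollicular epidermis (IFE.SB). T cell-like cells, which do not cornify, were used as a measure of free RNA. Values are CPM unless stated, a gene's UMIs per 1000000 UMIs of a cell class in a library, their intervals cover counting error only, and a lower CPM can mean fewer cells with the RNA or less RNA per cell. The 10 granular markers summed to 10893 to 29119 CPM in granular-like, 3262 to 5197 in spinous-like and 3192 to 9664 in uHF.SB-like cells over the libraries, and the 7 uHF suprabasal markers to 17963 to 88736 CPM in uHF.SB-like, 2895 to 7487 in granular-like and 238 to 1277 in spinous-like cells. Levels were not compared between genes, since 3′ tags capture transcripts unequally.

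The promoters of 5 members described below illustrate how differently the groups of this cluster begin. The following sequences are the 250 bases before the RefSeq transcription start (GRCm38.p6), written 5′ to 3′ on the gene's strand, with matches on either strand to the AP-1 motif TGANTCA, the KLF motif CACCC and the TATA motif TATAAA in capitals. Lor and Lce1m stand for the members found mostly in granular-like cells, Flg for the fused genes, and Sprr1a and Sprr2f for the small proline-rich genes that were also found in the follicle.
Lor (chr3:92083143-92083392, minus strand): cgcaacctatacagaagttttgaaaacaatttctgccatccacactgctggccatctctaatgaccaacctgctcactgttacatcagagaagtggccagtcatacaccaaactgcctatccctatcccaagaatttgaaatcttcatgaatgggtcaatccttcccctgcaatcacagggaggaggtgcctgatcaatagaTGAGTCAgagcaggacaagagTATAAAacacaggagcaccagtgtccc
Lce1m (chr3:93019062-93019311, minus strand): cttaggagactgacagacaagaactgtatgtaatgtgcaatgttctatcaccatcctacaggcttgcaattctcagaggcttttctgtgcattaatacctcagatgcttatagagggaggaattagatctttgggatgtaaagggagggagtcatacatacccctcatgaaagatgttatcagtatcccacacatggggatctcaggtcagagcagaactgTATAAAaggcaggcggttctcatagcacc
Flg (chr3:93273296-93273545, plus strand): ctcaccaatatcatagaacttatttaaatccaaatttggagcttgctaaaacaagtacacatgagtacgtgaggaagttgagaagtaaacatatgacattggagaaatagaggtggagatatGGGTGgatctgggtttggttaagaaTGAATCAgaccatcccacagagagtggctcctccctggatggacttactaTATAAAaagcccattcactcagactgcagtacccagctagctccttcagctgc
Sprr1a (chr3:92485882-92486131, minus strand): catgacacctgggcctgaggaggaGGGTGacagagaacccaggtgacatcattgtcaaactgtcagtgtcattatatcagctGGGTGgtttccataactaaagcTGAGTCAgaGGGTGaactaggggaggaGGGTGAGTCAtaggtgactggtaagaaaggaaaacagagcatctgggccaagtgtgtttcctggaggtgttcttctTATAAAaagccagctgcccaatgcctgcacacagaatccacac
Sprr2f (chr3:92364937-92365186, plus strand): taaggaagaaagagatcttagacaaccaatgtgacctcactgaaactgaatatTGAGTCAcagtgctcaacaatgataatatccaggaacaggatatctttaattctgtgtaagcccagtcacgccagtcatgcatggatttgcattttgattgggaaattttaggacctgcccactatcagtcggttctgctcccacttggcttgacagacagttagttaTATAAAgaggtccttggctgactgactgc

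Matches to AP-1 began 48 bases before the start in Lor, 103 before it in Flg, 146 and 116 before it in Sprr1a, and 197 before it in Sprr2f. In Sprr1a, the second of these shared 2 bases with a KLF match. Lce1m held only the TATA match, 29 bases before the start. Over 43 members with a RefSeq promoter (250 bases before to 50 after the start), 16 (37.2%) held an AP-1 match, against 7.93% of all 27025 promoters. Within the cluster the AP-1 matches were in 7 of 10 Sprr2 and 2 of 2 Sprr1 promoters and in 0 of 13 Lce1 and 0 of 6 Lce3 promoters. TATA matches were in 20 promoters (46.5%, against 14.2% of all) and KLF matches in 22 (51.2%, against 56.7% of all). The Sprr2 promoters without an AP-1 match were those of Sprr2a1, Sprr2a2 and Sprr2a3. A KLF match within the same longer stretch of bases began 38 bases after the start in Sprr2a1 and Sprr2a2 and 47 before it in Sprr2b. The windows of related genes were therefore not aligned, and related promoters are not independent. The annotated starts were not checked. These are matches of letters and not measured binding sites.

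Most members were concentrated in the granular-like cells, the last living layer of the epidermis. Granular-like and spinous-like cells were compared within the 6 libraries with edgeR's quasi-likelihood test with the library as a block, and a gene was called at a Benjamini-Hochberg FDR of 0.05 over all genes and a log2 fold change of at least 1. Of the 46 members, 37 passed the count filter, and 30 were called higher in granular-like cells, where 12.6% of all 11929 genes tested were called higher. All 19 Lce genes tested were higher, as were 4 of 10 Sprr genes, 4 of 5 fused genes and all 3 single precursor genes. A member could pass the filter through its granular-like level alone, so these counts are not support for a shared behaviour.

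Lor, the main protein of the envelope by mass, was at 23200, 9061, 10303, 1583, 17168 and 32081 CPM in granular-like cells from 0 h to 6 d. In spinous-like cells it lay between 13.1 and 140 CPM, so the classes did not overlap, and the log2 fold change was 8.43 (SE 0.53, edgeR adjusted p = 1.71e-05, higher in 6 of 6 libraries). Flg2, a filaggrin relative, differed by 9.19 on the log2 scale (SE 0.29, edgeR adjusted p = 3.55e-08). Ivl, an early envelope scaffold protein, differed by 4.18 (SE 0.32, edgeR adjusted p = 2.88e-05).

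The small proline-rich proteins, which bridge other envelope proteins, departed from this order. Sprr1a was at 1884, 3760, 1313, 1264, 285 and 2508 CPM in granular-like cells from 0 h to 6 d, and at 1229, 1740, 1001, 948, 285 and 970 CPM in spinous-like cells. The classes overlapped over the libraries, and the log2 fold change of 0.82 (SE 0.18, edgeR adjusted p = 0.00284) was under the fold limit. Sprr1b (log2 fold change 0.53, SE 0.24) and Sprr2a3 (-0.96, SE 0.44) were not called. Sprr1a RNA was therefore present in both suprabasal layers.

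Members were also counted in T cell-like cells. The summed members reached 698, 191, 174, 118, 53.2 and 705 CPM in T cell-like cells from 0 h to 6 d, between 3.67% and 9.75% of the level over all cells. Between 7 and 21 members had a lower CPM in spinous-like than in T cell-like cells of the same library. The CPM of Lor was lower in spinous-like cells in every library, with 140 against 303 CPM at 0 h and 115 against 324 at 6 d. Per cell the order was the opposite in every library, with 1.51 Lor UMIs per spinous-like and 0.808 per T cell-like cell at 0 h and 1.08 against 0.887 at 6 d. After thinning each cell to 2000 UMIs, 23.8% (95% Clopper-Pearson interval 21.4 to 26.4) of spinous-like cells at 0 h had a Lor UMI, below the 41.3% (34.0 to 48.9) of T cell-like cells, while without thinning the shares were 73.4% and 55.1%. Median depths were 10458 UMIs per spinous-like cell and 2702 per T cell-like cell at 0 h, and thinning and CPM both reduce a fixed number of free molecules more in the deeper cells. Free RNA and low expression of Lor in spinous-like cells therefore cannot be told apart here. Sprr1a was unlike Lor, with a UMI in 38.1% of thinned spinous-like cells and 7.3% of T cell-like cells at 0 h. Against T cell-like cells, IFE.SB-like cells were higher for all 32 members tested, where 25.9% of all genes were called higher. A member could pass the count filter through its IFE.SB-like level alone (Lce1g, Lce1k and Lce3e had 0 CPM in T cell-like cells), so this count is no support for a difference.

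**Figure D1:**
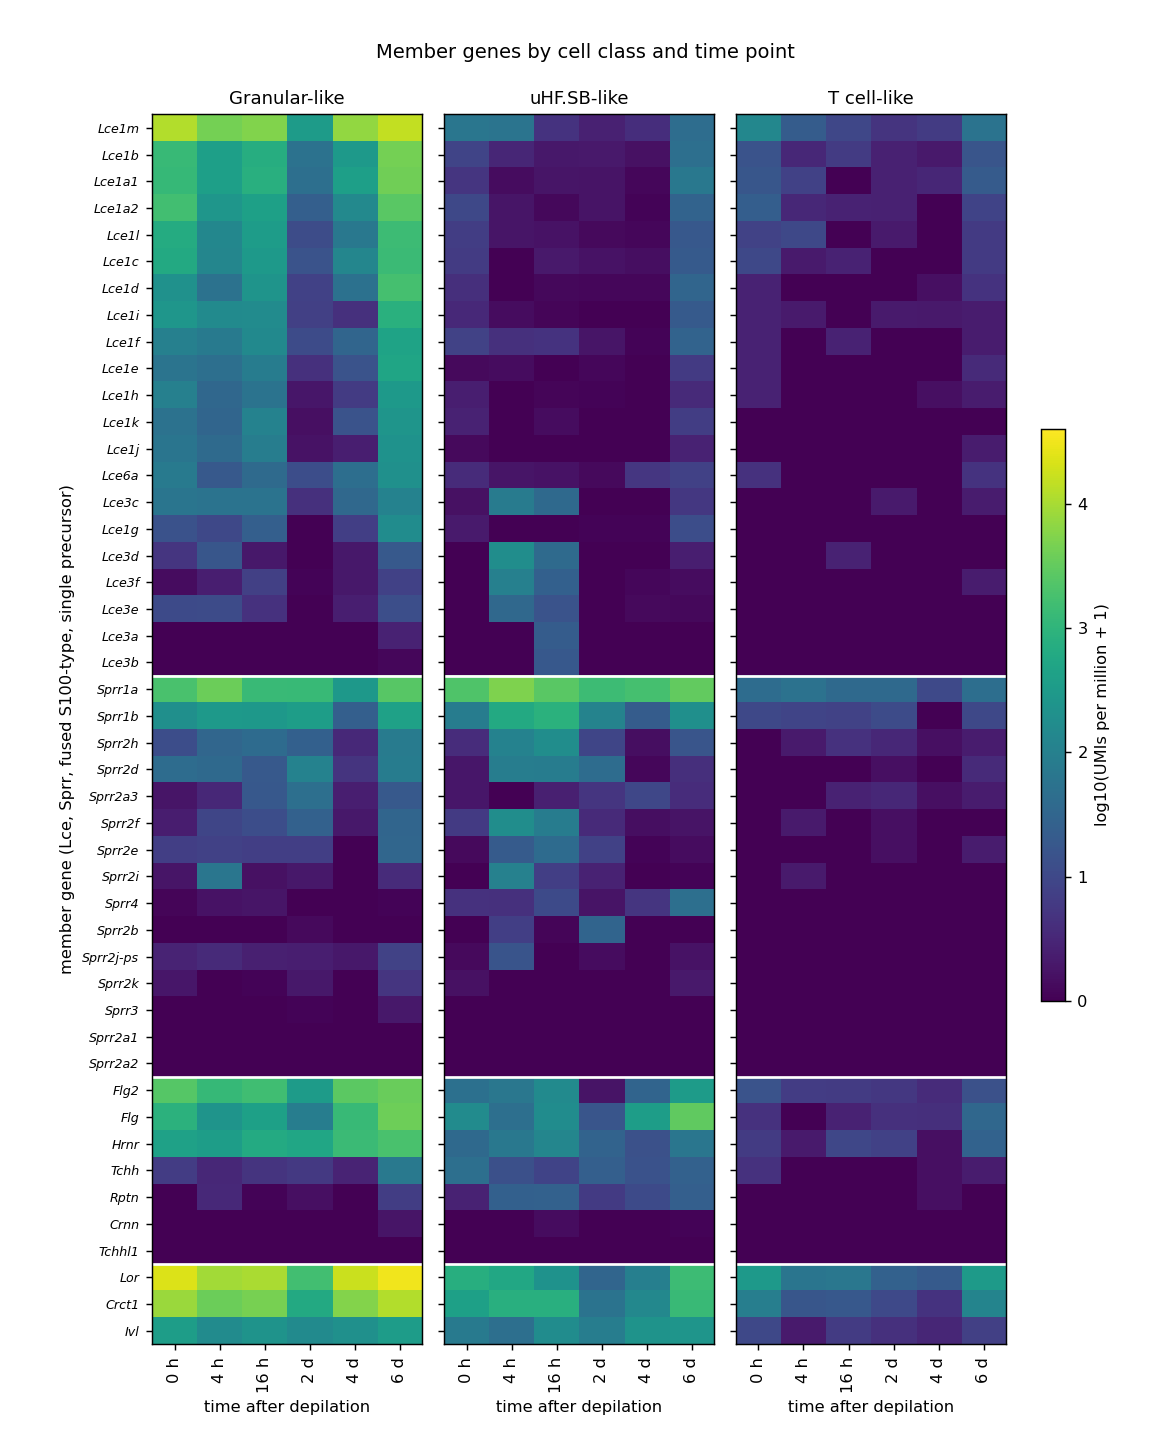
All 46 members (rows, by group and then by total UMIs) at the 6 time points (columns) in granular-like, uHF.SB-like and T cell-like cells, coloured by log10(CPM + 1) of the summed cells, with white lines between the groups. Lce1 genes, Lor and Crct1 are bright in granular-like cells and dim at 2 d, and Sprr1a is bright in both epithelial classes, while T cell-like cells show a faint signal for the members that are bright in granular-like cells.

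Over the time course the granular-like level of the members was lowest at 2 d and highest at 6 d. The summed level was 55648, 25220, 28162, 5702, 36875 and 90588 CPM from 0 h to 6 d, with exact Poisson 95% intervals of 55517 to 55779 for the 0 h library and 5653 to 5751 for the 2 d library. The 2 d library was 0.102 times the 0 h library and the 6 d library 1.63 times. Of the 38 members with at least 10 UMIs in a library, 33 had their highest CPM at 6 d, and 23 had their lowest at 2 d and 10 at 4 d. The matching shares of all genes were not computed, so these counts are not read as particular to the members. The spinous-like sum moved less before 4 d, with 1646, 2213, 1634, 1425, 383 and 1516 CPM from 0 h to 6 d.

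Counts of members at least 2-fold from 0 h, among those with at least 10 UMIs in 1 of the 2 sums, followed the same course. In granular-like cells 15 of 37 members were at least 2-fold lower in the 4 h library (13.7% of all genes) and 9 of 36 in the 16 h library (5.88% of all genes). The 2 d library had 23 of 35 lower (10.8% of all genes) and the 4 d library 21 of 35 (3.81% of all genes). In the 6 d library 29 of 38 were at least 2-fold higher (5.56% of all genes). In the opposite direction, 7 of 37 were at least 2-fold higher at 4 h (16.4% of all genes), 5 of 36 at 16 h (9.26%), 4 of 35 at 2 d (9.82%) and 1 of 35 at 4 d (9.73%), and 0 of 38 were lower at 6 d (6.45%). These comparisons share the 0 h library and have no replicate.

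The spline over hours fitted with edgeR's quasi-likelihood test, which had 2 residual degrees of freedom, called 0 members in granular-like cells (0% of all 11101 genes), 0 in spinous-like cells (0% of 11438), 0 in IFE.SB-like cells (0% of 12435) and 0 in uHF.SB-like cells (0% of 11574). At an unadjusted p under 0.05, 25 of 36 members in granular-like cells passed (4.05% of all genes), 5 of 23 in spinous-like cells (1.16%), 25 of 37 in IFE.SB-like cells (2.67%) and 25 of 34 in uHF.SB-like cells (4.05%). With time as log2(hours + 1), these became 7 of 36 members in granular-like cells (11.5% of all genes), 9 of 23 in spinous-like cells (10.1%), 12 of 37 in IFE.SB-like cells (11.8%) and 28 of 34 in uHF.SB-like cells (20%), so the number of members that passed depended on the time scale. On this scale 8 members were called at FDR 0.05 in uHF.SB-like cells (Lce3f, Sprr2f, Lce3d, Lce3e, Lce1i, Lce1m, Sprr2e and Rptn), where 0.838% of all genes were called. The same fit called 1 member in granular-like cells (Lce3d; 0.0901% of all genes), and 0 in IFE.SB-like (0.0402%) and in spinous-like cells (0.0175%). The time courses below are therefore given as values.

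Lce1m, a late cornified envelope gene, was at 11764, 4380, 5281, 337, 7005 and 15228 CPM in granular-like cells from 0 h to 6 d. It was 0.0286 times its 0 h level at 2 d, a deeper low than the 0.0682 times of Lor. The remaining Lce1 genes had a wider range still. In IFE.SB-like cells the highest library exceeded the lowest by 284-fold for Lce1d, 172-fold for Lce1e and 141-fold for Lce1l, the largest such ranges among 22 members with at least 10 UMIs in every library. In granular-like cells Lce1d was at 212, 6.85 and 1741 CPM in the 0 h, 2 d and 6 d libraries. In these libraries Lce1b was at 1237, 54.3 and 4297 CPM, Lce1a1 at 1208, 47.1 and 4014, and Lce1a2 at 1614, 24.1 and 2657. The 6 d library thus stood above 0 h by more for these Lce1 genes than for Lce1m. Several Lce1 genes share 3′ sequence (up to 29.6% of the 60-base windows of their last 400 bases), so their split is uncertain, which does not apply to Lor, Lce1m, Crct1, Flg or the Sprr1 genes (0%).

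Crct1, a small cysteine-rich gene of the same cluster, was at 8068, 3713, 4452, 628, 5611 and 11794 CPM. Flg2 was at 2396, 1208, 1547, 331, 2706 and 3559 CPM. Both shared the 2 d low of Lor. Flg, the filaggrin precursor, was at 901, 244, 405, 89.2, 1248 and 3825 CPM, and stood 4.25-fold above 0 h at 6 d. Hrnr, a further fused S100-type gene, had no low at 2 d, with 420, 369, 637, 529, 1363 and 1913 CPM. Ivl stayed between 161 and 368 CPM over all 6 libraries. Hrnr and Ivl thus departed from the course of Lor, whereas Flg had its low at the same time point.

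Sprr1a and Sprr1b instead had their granular-like low at 4 d. Sprr1b was at 197, 313, 284, 364, 23.9 and 435 CPM, so that at 2 d it was 1.85-fold above 0 h while Lor was at its lowest. The 4 d values rest on 88 granular-like cells, and barcodes called as doublets and removed held 35.0% of that library's member UMIs, against 0.819% to 11.4% in the other libraries. In the 4 d library the analysed cells held 62.6% of the member UMIs. The part of this removal in the 4 d values was not tested.

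**Figure D2:**
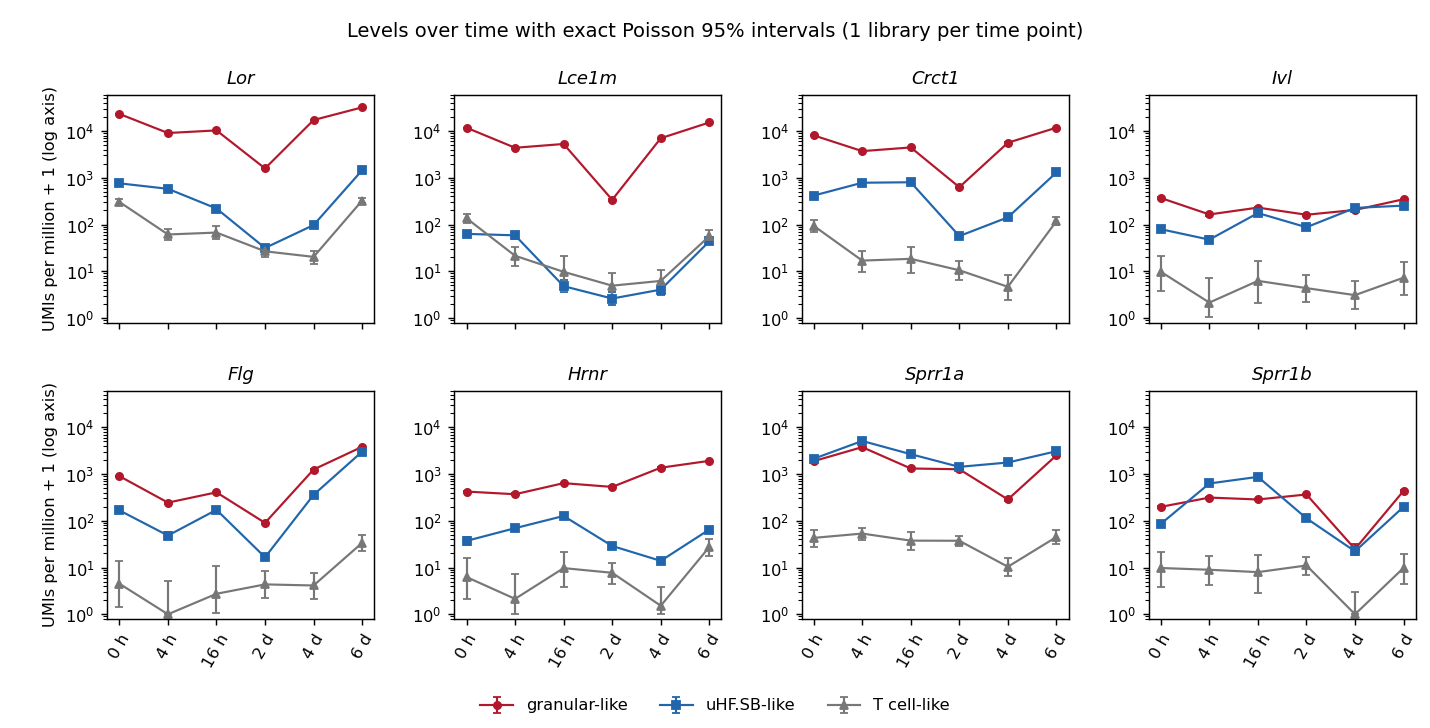
CPM + 1 (log axis) of 8 members against time point in granular-like, uHF.SB-like and T cell-like cells, with exact Poisson 95% intervals and 1 library per point. Lor, Lce1m and Crct1 are lowest at 2 d in granular-like cells, Flg in both epithelial classes ends highest at 6 d, and Sprr1b peaks at 16 h in uHF.SB-like cells with 869 CPM.

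The members were unevenly spread over the granular-like cells. The share of a granular-like cell's UMIs that came from members had medians of 1.31%, 0.411%, 0.264%, 0.316%, 0.182% and 2.46% from 0 h to 6 d. The 90th percentile was 22.7% in the 0 h, 1.48% in the 2 d and 34.5% in the 6 d library. Cells with at least 10% member UMIs numbered 59 of 298 in the 0 h library (19.8%), 20 of 210 (9.52%) and 26 of 277 (9.39%) in the next 2, 4 of 266 in the 2 d library, 19 of 88 (21.6%) in the 4 d library and 95 of 331 (28.7%) in the 6 d library. At 4 d the median was the lowest of all libraries while the share of heavily loaded cells was near that of 0 h.

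**Figure D3:**
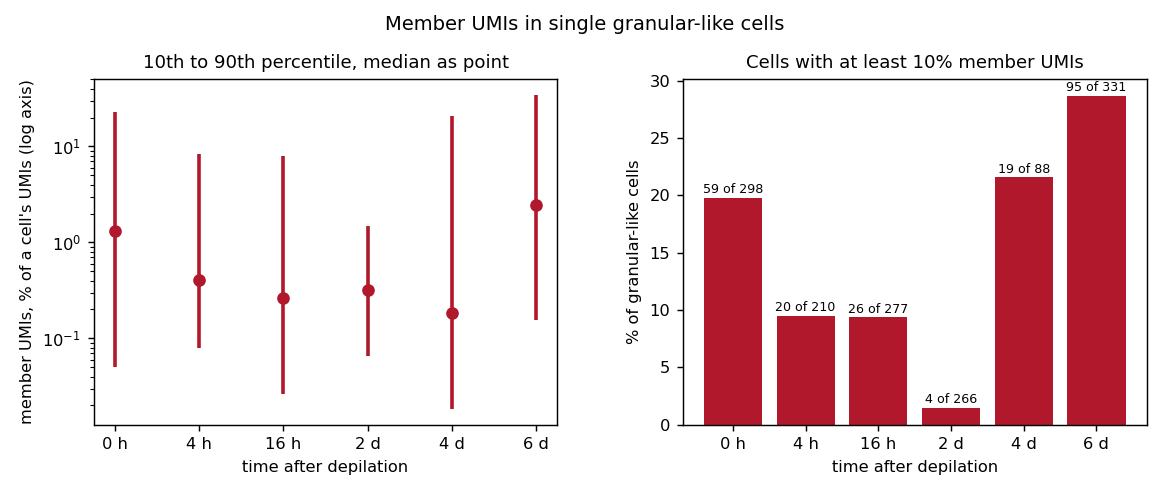
Left, percent of each granular-like cell's UMIs that come from members (log axis), with the 10th to 90th percentile as a line and the median as a point. Right, percent of granular-like cells with at least 10% member UMIs, with cell counts above the bars, lowest at 2 d with 4 of 266.

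A finer clustering, again without the members, divided the granular-like cells. Its smaller cluster, led by Wfdc21, Il18 and Asprv1 (which encodes the protease that processes filaggrin), held 67, 22, 22, 10, 20 and 106 cells from 0 h to 6 d, which was 3.76% of granular-like cells at 2 d and 32.0% at 6 d. Members made up 22.3%, 17.7%, 23.8%, 9.51%, 24.5% and 28.2% of its UMIs. In its larger cluster, led by Ifitm6 and Krt77, they made up 3.16%, 1.59%, 1.65%, 0.468%, 0.332% and 2.86% from 0 h to 6 d. The level inside the larger cluster was thus also lower at 2 d and 4 d. The summed level inside the smaller cluster varied less over the libraries than the summed granular-like level and than the cluster's share of granular-like cells. Single members differed in this. Inside it Lor lay between 56252 and 116499 CPM, Crct1 between 15109 and 40414.5 and Flg between 2460 and 12044. Lce1m varied more, from 3336 CPM at 2 d to 52612 at 6 d, as did Sprr1a, from 107 at 4 d to 5905 at 4 h. The 10 granular markers summed in granular-like cells were at 17862, 17384, 16360, 10893, 18262 and 29119 CPM. They shared the 2 d low and the 6 d high of the members. At 4 h, 16 h and 4 d they stayed near their 0 h level, while the member sum was lower than at 0 h. The 6 basal markers were lowest at 0 h (918 CPM) and highest at 2 d (6063 CPM). The part of either marker set in the result was not tested. Median UMIs per granular-like cell lay between 21012 and 39210.

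Some members differed in level between the upper follicle and the suprabasal epidermis. IFE.SB-like and uHF.SB-like cells were compared within the 6 libraries in the same way, and of 39 members tested 20 were higher in IFE.SB-like cells (7.12% of all 12366 genes) and 3 were lower (7.71% of all genes). The Lce genes gave 15 higher of 19 tested, and the 4 not called were Lce3 genes. Of the Sprr genes, 1 of 12 was higher and 2 lower, of the fused genes 2 of 5 higher and 1 lower, and of the single precursors 2 of 3 higher. The median log2 fold change of the members tested was 2.34, against -0.01 over all genes. A member could pass the count filter through its level in either class alone. These counts and this median are therefore not support for a shared behaviour, and the members below are described singly.

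Lor averaged 6841 CPM in IFE.SB-like and 522 CPM in uHF.SB-like cells (log2 fold change 4.17, SE 0.43, edgeR adjusted p = 0.000291). Lce1m averaged 3235 and 28.5 CPM (7.39, SE 0.71, edgeR adjusted p = 0.000194), and was higher in 6 of 6 libraries. Crct1 (2.34, SE 0.42, edgeR adjusted p = 0.00457), Flg2 (3.85, SE 0.69, edgeR adjusted p = 0.00434) and Hrnr (2.85, SE 0.60, edgeR adjusted p = 0.00932) were also higher in IFE.SB-like cells. Among members called higher in IFE.SB-like cells, the largest fold changes were those of Lce1 genes.

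Several members were not called between the follicle and the epidermis. Flg averaged 495 CPM in IFE.SB-like and 629 CPM in uHF.SB-like cells (log2 fold change 0.62, SE 0.30, edgeR adjusted p = 0.158). Its paired fold change and its means ran in opposite directions, since it was higher in IFE.SB-like cells in 4 of 6 libraries while 3016 CPM in uHF.SB-like cells at 6 d, against 15.6 to 358 CPM in the other libraries, raised the follicle mean. Ivl averaged 115 and 144 CPM (-0.12, SE 0.35). Sprr1b averaged 245 and 319 CPM (0.26, SE 0.37), and was also higher in IFE.SB-like cells in 4 of 6 libraries, with a follicle mean raised by 627 CPM at 4 h and 869 CPM at 16 h. Sprr1a was lower in IFE.SB-like cells in 6 of 6 libraries, with 1376 against 2689 CPM, but its log2 fold change of -0.97 (SE 0.28, edgeR adjusted p = 0.0323) was under the fold limit. A missed call does not show equal levels.

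Sprr4 and Rptn were called lower in IFE.SB-like cells and are named after their values were seen. Both could pass the count filter through their uHF.SB-like level alone, so their tests are not read as support for a difference. Sprr4, a small proline-rich gene, averaged 0.125 CPM in IFE.SB-like and 11.6 CPM in uHF.SB-like cells (-5.82, SE 0.65, edgeR adjusted p = 0.000288), and 149 of 1177 uHF.SB-like cells held it at 6 d. Rptn (repetin), a fused gene whose protein is known from the follicle opening and other specialised epithelia, averaged 0.692 and 15.1 CPM (-4.62, SE 0.61, edgeR adjusted p = 0.000817). Both were lower in IFE.SB-like cells in 6 of 6 libraries, and both were still called when the cell with most of the gene's UMIs was left out of each sum. Sprr2b, the third such gene, had 273 of its 274 uHF.SB-like UMIs at 2 d in 1 cell and could not be tested without it. Sprr2a3 was higher in IFE.SB-like cells (2.96, SE 0.47, edgeR adjusted p = 0.00229), but shares 51.9% of its 3′ windows, and its neighbours Sprr2a1 and Sprr2a2 (100% shared) had 9 and 1 UMIs in all cells.

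**Figure D4:**
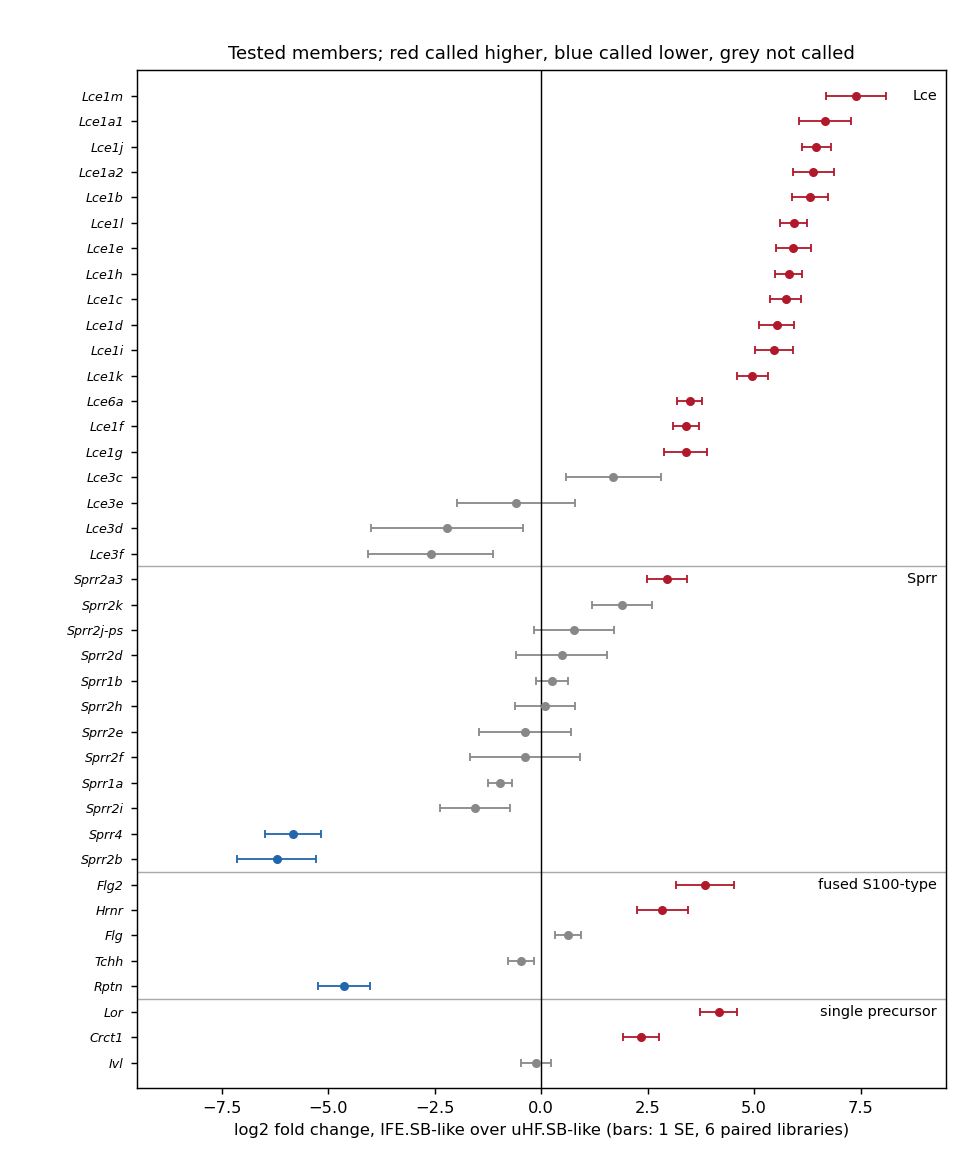
Log2 fold change of each tested member, IFE.SB-like over uHF.SB-like cells, with 1 SE over 6 paired libraries, by group, with calls higher in red, calls lower in blue and no call in grey. Lce1 genes lie between 3.39 and 7.39, Lce3 genes have wide errors around 0, and Sprr4, Rptn and Sprr2b lie furthest to the left.

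The class borders mattered for these counts. At 4 times the clustering resolution a follicle cluster led by Casp14, Krt79 and Klk7 took the name granular-like from the fixed markers. In IFE.SB-like cells 32 of 37 members tested were then higher (1164 of all 12125 genes) and 1 lower. That cluster held the follicle's Flg, at 5087 CPM at 6 d against 63.8 in its neighbour led by Defb6, Cst6 and Krt79. Sprr1a was in both, at 2608 and 3735 CPM. The uHF.SB-like class therefore holds a part rich in Flg and a part with little of it.

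Against T cell-like cells, uHF.SB-like cells were higher for 22 of 28 members tested, where 23.2% of all genes were called higher. Members such as Sprr4, Sprr2b and Lce3e had 0 CPM in T cell-like cells and passed the count filter through the follicle alone, so this count is no support for a difference. Without each member's top cell 17 were called, and Sprr2b, Sprr2i, Lce1f, Lce3e and Lce3f could no longer be tested. The matching share of all genes is not given for the 17, so they are not read as a result about the members. Of the 14 Lce1 genes, Lce1a1, Lce1b, Lce1a2, Lce1c, Lce1l and Lce1m were tested and not called, and 7 were not tested. Lce1f was called, with 7.20 CPM in uHF.SB-like and 0.792 in T cell-like cells (log2 fold change 3.50, SE 0.65, edgeR adjusted p = 0.000345, higher in 6 of 6 libraries). It could pass the count filter through the follicle alone, so this call is not read as support for a difference.

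Lor was also called higher in uHF.SB-like than in T cell-like cells (log2 fold change 2.11, SE 0.34, edgeR adjusted p = 0.000174), and remained so without the top cell of each sum (edgeR adjusted p = 0.00501). It was at 7.90 UMIs per uHF.SB-like and 0.808 per T cell-like cell at 0 h, and at 14.2 and 0.887 at 6 d. Its UMIs were unevenly spread, with 1032 of 1396 at 4 h in 1 uHF.SB-like cell. The thinned share of uHF.SB-like cells with a Lor UMI was 27.1%, 4.1%, 6.5%, 2.6%, 2.3% and 26.6% from 0 h to 6 d, against 41.3%, 7.8%, 12.3%, 4.0%, 2.6% and 46.7% of T cell-like cells. Without thinning it was 70.0% and 55.1% at 0 h and 63.2% and 59.1% at 6 d. The sums were thus higher in the follicle while the thinned share of cells was not, and for most uHF.SB-like cells free RNA and expression of Lor cannot be told apart. A Sprr1a UMI was in 49.2%, 70.7%, 52.8%, 50.3%, 59.4% and 67.5% of thinned uHF.SB-like cells and in at most 8.2% of T cell-like cells.

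Over time the follicle sum was higher at 4 h than at 0 h, where the granular-like sum was lower, a difference between the classes that was not tested. The summed members in uHF.SB-like cells were at 3885, 8335, 5778, 1882, 2695 and 10138 CPM from 0 h to 6 d. Of the members compared with 0 h, 14 of 30 were at least 2-fold higher (18% of all genes) and 9 lower (17.8%) at 4 h, and 17 of 31 were higher (12.3%) and 9 lower (7.47%) at 16 h. At 2 d, 13 of 26 were at least 2-fold lower (8.21% of all genes) and 6 higher (7.17%), and at 4 d 15 of 23 were lower (9.48%) and 4 higher (11.8%). At 6 d, 23 of 33 were higher (7.73% of all genes) and 1 lower (11.1%). Without the 5 cells with most member UMIs in each sum, the 4 h level was 1.66 times that of 0 h instead of 2.15 times.

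Sprr1a gave most of the member UMIs of the follicle at 4 h and was at 2121, 5095, 2657, 1422, 1764 and 3073 CPM from 0 h to 6 d. Sprr1b was at 84.8, 627, 869, 112, 21.2 and 198 CPM, 10.2-fold above 0 h at 16 h. Its early UMIs were in 81 of 272 cells at 4 h and 189 of 655 cells at 16 h, against 47 of 330 at 0 h. The Sprr2 genes were high at the same time points but in fewer cells. Sprr2h was at 2.91, 111, 182, 8.16, 0.507 and 15.3 CPM, in 26 cells at 4 h and 71 at 16 h. Sprr2f was at 4.95, 178, 84.7, 2.58, 0.507 and 0.783 CPM, in 9 and 8 cells. Both were highest in the 4 h or the 16 h library. Sprr2d was at 88.0 CPM at 4 h in 5 cells and 83.8 at 16 h in 20 cells, and 380 of its 385 UMIs at 2 d were in 1 cell. The Sprr2 time courses in the follicle therefore rest on few cells.

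The follicle's Flg had a late course. It was at 166, 47.3, 171, 15.6, 358 and 3016 CPM from 0 h to 6 d, and the highest library exceeded the lowest by 194-fold, the largest such range among 9 members with at least 10 UMIs in every library. The number of cells with a Flg UMI was 9, 4, 25, 16, 80 and 226. After thinning, 12.3% (10.4 to 14.3) of uHF.SB-like cells at 6 d had one, against 5.3% (2.8 to 9.1) of T cell-like cells. The 6 d library was the highest for Flg in both classes. Sprr4 was also highest at 6 d, at 3.50, 3.32, 9.90, 0.751, 4.16 and 47.7 CPM. Ivl was at 78.4, 46.5, 175, 86.4, 225 and 253 CPM. Both genes thus had their highest follicle value in the last library. Lor, at 760, 579, 219, 30.5, 96.3 and 1450 CPM, and Crct1, at 415, 782, 801, 55.6, 141 and 1296 CPM, were lowest at 2 d as in granular-like cells.

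The Lce3 genes, a set chosen here after its values were seen and known as the late envelope genes of wounded and inflamed skin, showed how few cells can carry a class sum. In uHF.SB-like cells the 6 genes summed to 2, 952, 1120, 0, 5 and 77 UMIs from 0 h to 6 d. At 4 h, 870 of the 952 UMIs were in 1 of 272 cells, and at 16 h 917 of the 1120 were in 1 of 655 cells. The 3 cells with most held 98.7% at 4 h and 92.6% at 16 h. The 16 h cell held all 6 Lce3 genes and 0 Lor UMIs, and the 4 h cell 4 Lce3 genes and 2 Lor UMIs. In granular-like cells the genes were spread more widely, with 923 UMIs over 42 cells at 0 h and 1308 over 70 cells at 6 d. Lce3c and Lce3d share 42.2% and 41.3% of their 3′ windows with other genes, so their split is uncertain. Without the top cell of each sum, Lce3e and Lce3f no longer passed the count filter of the comparison with T cell-like cells.

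**Figure D5:**
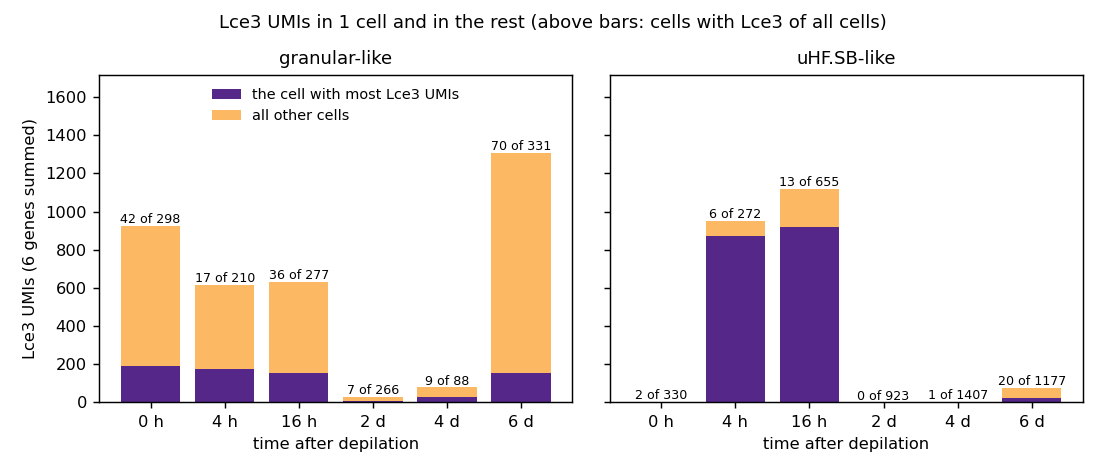
UMIs of the 6 Lce3 genes in granular-like and uHF.SB-like cells by time point, split into the cell with most (purple) and all other cells (orange), with the cells holding any Lce3 UMI of all cells above each bar. In uHF.SB-like cells 1 cell makes up most of the bar at 4 h (870 of 952) and at 16 h (917 of 1120).

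Tchh and Crnn had their highest CPM in a further class. Tchh encodes trichohyalin, which hardens the inner root sheath (IRS) of the growing hair, and IRS-like cells were found at 4 d (119 cells) and 6 d (27 cells). Tchh was at 469 CPM (exact Poisson 95% interval 429 to 513) and 3419 CPM (3163 to 3690) in them, against 7.46 to 46.0 CPM in uHF.SB-like and 1.91 to 70.0 CPM in granular-like cells over all libraries. Most Tchh UMIs nevertheless lay in other cells, since IRS-like cells held 492 at 4 d and 659 at 6 d of 8290 in all. Tchh was higher than in T cell-like cells in IFE.SB-like (log2 fold change 4.93, SE 0.52, edgeR adjusted p = 1.14e-06) and in uHF.SB-like cells (5.17, SE 0.47, edgeR adjusted p = 4.62e-07), in 6 of 6 libraries each. It averaged 0.881 CPM in T cell-like cells and could pass the count filter through the other class alone. These tests are therefore not read as support for a difference. Crnn was at 21.0 and 51.9 CPM in IRS-like cells and at most 0.79 CPM in granular-like cells. Crct1 (371 and 394 CPM) and Sprr1a (640 and 591 CPM) were also present there, and Sprr2h, Sprr2f and Sprr2d had 0 UMIs. Tchhl1 (4 UMIs in all cells) and Sprr3 (10 UMIs) were close to absent from this skin, and Lce3a and Lce3b were found almost only at 16 h in the cell named above.

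Across 42 sums of a cell class in a library, which share libraries and depth and are not independent, the log-scale level of Lor was most like that of Flg2 (Pearson r = 0.964) and Crct1 (r = 0.952). Sprr1a was most like Sprr1b (r = 0.933), Lce1a1 like Lce1b (r = 0.976), Flg like Hrnr (r = 0.901) and Sprr2d like Sprr2e (r = 0.940). The nearest gene to Tchh was Sprr2a3 at r = 0.425.

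The genes that work with the members were described from a list of 41, of which 39 passed the count filter in IFE.SB-like against uHF.SB-like cells, 10 higher (7.12% of all genes) and 2 lower (7.71%). Tgm3, a transglutaminase, was higher in IFE.SB-like cells (log2 fold change 2.41, SE 0.38, edgeR adjusted p = 0.00155) and Tgm5, a further transglutaminase, lower (-1.32, SE 0.26, edgeR adjusted p = 0.00533). Of the 7 lipid envelope genes 4 were higher, among them the lipoxygenases Alox12b (2.10) and Aloxe3 (1.83). The cystatin Csta1 (1.75), Blmh (1.64), a protease of filaggrin breakdown, and the transcription factor Fosl1 (1.48) were higher too. None of the 6 envelope scaffold genes, such as envoplakin and periplakin, was called. All but envoplakin (0.33, SE 0.12, edgeR adjusted p = 0.0618) passed the FDR limit and missed only the fold limit. The largest of their fold changes was that of periplakin (0.56, SE 0.09, edgeR adjusted p = 0.00128). In granular-like against spinous-like cells 18 of 39 were higher (12.6% of all genes) and 2 lower (9.3%). All 7 lipid envelope genes and all 4 tested genes of filaggrin processing and desquamation were among the higher.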

How the data were processed

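Single-cell RNA was measured in 6 libraries, 1 per time point, each mixing cells of 2 mice. The authors deposited raw UMI counts per gene and barcode, and the submitters' processing notes name Cell Ranger 6.1.2 and mm10. The treatment of intronic reads is not given in the sources used here. The members, the lists, the classes compared and the alternatives were chosen with earlier results of these data known.

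Barcodes with 500 to 7000 genes and at most 10% mitochondrial UMIs were kept, and the highest Scrublet scores (scanpy 1.11.5) were removed at 0.8% per 1000 barcodes. Cells were integrated with Seurat 5.3.0 over 2000 features that left out 184 genes (the members, the pathway list and cell cycle genes), clustered at resolution 0.2 and named from fixed markers. Names may differ from the study's own.

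Counts were summed per class and library. Classes with at least 20 cells were compared with edgeR 4.0.16 in R 4.3.3 (quasi-likelihood, robust, TMM, filterByExpr, library as block), called at FDR 0.05 and an absolute log2 fold change of 1. Both sums of a library come from the same mice, which is what pairs them. Time courses were fitted as natural cubic splines (3 degrees of freedom) over hours. CPM have exact Poisson and shares of thinned cells exact Clopper-Pearson 95% intervals. A floor of 3 UMIs per sum was set for folds against 0. In simulated data, recovery was counted at FDR 0.05 alone, without the fold limit used for calls between classes. For IFE.SB-like against uHF.SB-like cells (12048 genes), 94 of 100 genes changed 2-fold and 100 of 100 changed 4-fold were recovered, with 7 false calls. The recovery with the fold limit was not measured. In data simulated for the IFE.SB-like time course (12365 genes), 7 of 100 and 84 of 100 were recovered, with 2 false calls. In both simulations every gene had the same dispersion, and only genes above a minimum expected count were changed. The recovery of more variable or rarer genes was not measured.

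Named in full were up to 5 members per group with the highest mean CPM in IFE.SB-like, uHF.SB-like or IRS-like cells, members called over time, and the 3 with the widest range in each suprabasal class. Up to 8 pathway genes were named by the size of their fold change, of which 1 is not reported here. Promoters came from RefSeq (GRCm38.p6), with no entry for Sprr2j-ps, Lce1f and Crct1.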

Additional observations from a re-analysis of the deposited data

Results flagged for a closer look

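The sum of all members at 4 h was 0.453 times its 0 h level in granular-like cells and 2.15 times its 0 h level in uHF.SB-like cells. The 2 classes moved in opposite directions between the same libraries, and this difference was not tested, since each time point is 1 library. Granular-like cells numbered 298 at 0 h and 210 at 4 h, and uHF.SB-like cells 330 and 272. The summed granular markers were at 17862 and 17384 CPM in granular-like cells and at 3192 and 7390 CPM in uHF.SB-like cells at these times, and their part in the result was not tested.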

How the results depend on the processing

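Over the results and alternatives computed, 149 values stayed within the limits for an unchanged result and 52 moved. No value changed direction, but a count of members called cannot do so. At 4 times the resolution, an alternative chosen after seeing the data, members higher in IFE.SB-like than uHF.SB-like cells went from 20 to 32 and members lower from 3 to 1, members lower in granular-like than spinous-like cells from 0 to 1, and members higher in uHF.SB-like than T cell-like cells from 22 to 6. With the 32 higher, 1164 of 12125 genes were called higher, against 880 of 12366 in the main fit. Without the replicate block of the library, members higher in IFE.SB-like than uHF.SB-like cells fell from 20 to 14, which still counted as unchanged. In that fit 516 of 11196 genes were called higher. Members lower in IFE.SB-like than uHF.SB-like cells were then 1. Members higher than in T cell-like cells were 20 in IFE.SB-like and 8 in uHF.SB-like cells. Fewer members passed the count filter in these fits. Members lower in granular-like than spinous-like cells were 1 with DESeq2 and 1 without each member's top cell. Time course calls in uHF.SB-like cells were 8 with log2(hours + 1) and 5 with time points ranked, and in granular-like cells 1 with log2(hours + 1) and 1 without the count filter. Apart from the 32 and the 14 higher, the shares of all genes called are not given in this paragraph. Its counts are not read as results about the members.

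Leaving out each library in turn gave 20 to 21 members higher and 2 to 5 lower in IFE.SB-like than uHF.SB-like cells, with 5 without the 6 d library. In granular-like against spinous-like cells it gave 27 to 31 higher and 0 to 1 lower. Against T cell-like cells it gave 31 to 36 higher for IFE.SB-like cells, and 16 to 22 higher and 0 to 1 lower for uHF.SB-like cells. Over the time course it gave 0 to 19 members in IFE.SB-like cells (19 without 4 h, 16 without 16 h), 0 to 16 in uHF.SB-like cells (16 without 0 h or 16 h, 14 without 4 d), 0 to 6 in spinous-like cells (6 without 4 h) and 0 to 10 in granular-like cells (10 without 16 h, 9 without 4 h). A spline without 1 library leaves fewer than 2 residual degrees of freedom. The shares of all genes called are not given for the counts of this paragraph, so they are not read as results about the members.

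The summed granular-like level at 2 d over 0 h was 0.131 with cells thinned to 1 depth, 0.0973 at the doubled resolution and 0.0862 without the 5 cells with most member UMIs. At 4 d over 0 h (0.663) it was 0.670 after subtracting the T cell-like CPM, 0.832 thinned, 0.570 at the doubled resolution and 0.420 without those cells, and at 6 d 1.64, 1.55, 1.58 and 1.71. The uHF.SB-like level at 4 h over 0 h was 2.56 after subtraction, 1.63 thinned and 1.66 without those cells, and at 6 d over 0 h (2.61) 2.96, 2.31 and 3.56. Without thinning, 98.7% of granular-like cells at 0 h and 53.8% at 2 d had a Lor UMI, and 83.1% of uHF.SB-like cells at 4 h and 64.2% at 2 d a Sprr1a UMI. The cause of these changes was not tested. At the halved resolution no cluster was named granular-like, which gave no value for it.

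With 1 library per time point, differences between time points carry counting error only, and the spread between mice is not measured. The spline leaves 2 residual degrees of freedom. Few granular-like cells at 4 d, free RNA in every class and shared 3′ sequence limit the lowest members.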
